A study of Mus musculus with 4 samples.

Results

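The axonemal dyneins and the proteins that build, dock and regulate them were followed through 4 sequencing libraries labelled pachytene spermatocytes. The genes were taken from the count table by symbol: those beginning Dnah, Dnai, Dnal or Dnali, Dnaaf, Odad or Drc and followed by a number where the family is numbered. This gave 41 of the 50763 genes of the table, namely 15 heavy chains, 8 intermediate and light chains, 4 docking genes, 11 assembly factors and 3 nexin-dynein regulators. All 41 passed the filter on low counts. The libraries came from mouse testis, 2 labelled wild type (WT) and 2 labelled Hsf5 knockdown, Hsf5 being a heat shock factor gene of the male germ line. Not given in the sources used here were the strain, the age and how the knockdown was made. The replicates are labelled biological, but the animals are not named, so the p-values cover no more than the spread between the 4 libraries, which may be technical.

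Axonemal dyneins are the motors that bend cilia and sperm tails. Their heavy chains carry the motor, intermediate and light chains hold the arms together, a docking complex fixes the outer arms to the doublet microtubule, and the nexin-dynein regulatory complex links neighbouring doublets and governs the inner arms. Assembly factors fold and join the arms in the cytoplasm before these are carried to the axoneme. In the mouse testis many of these genes are switched on during meiosis, well before the tail is built.

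Libraries held 33287428 to 42479164 counts. Hsf5 itself had 586 and 449 CPM (read counts scaled to the library total with TMM factors) in WT and 287 and 238 CPM in the knockdown. Its log2 fold change was -0.98 (SE 0.31; edgeR quasi-likelihood test, adjusted p = 0.0217), a call that was lost without WT replicate 1 (adjusted p = 0.219), without WT replicate 2 (adjusted p = 0.0725), with library totals as the only scaling (adjusted p = 0.116) and against a 1.5-fold minimum (adjusted p = 0.0772). Of 15 pachytene markers 9 fell, against 33.5% of the 23594 genes tested, 2 (Sycp1 and Hormad1) rose, against 27.4%, and 4 did not pass. Of these 4, Sycp3 and Syce2 lay above WT in both knockdown libraries, Sycp2 lay below, and H1f6 overlapped. The deepest falls were those of Pgk2, Adam3, Ovol2, Tdrd6 and Ccna1, with log2 fold changes from -7.50 to -6.10. All 15 round and elongating spermatid markers fell, from summed levels of 4340 and 2163 CPM in WT to 26.9 and 18.8 CPM. Of 12 markers of spermatogonia and preleptotene cells 10 rose, and of 19 markers of Sertoli, Leydig, peritubular and immune cells 17 rose, with summed levels of the latter of 139 and 647 CPM in WT and 1967 and 3067 CPM in the knockdown. Marker genes of cell types other than the labelled pachytene spermatocytes were thus counted in both groups. Most of the markers differed between the same groups as are compared below, and their part in those results was not tested. In such bulk libraries fewer cells of a type and less RNA per cell cannot be told apart.

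Nearly the whole group was lower in the knockdown libraries. Of the 41 genes 34 fell, against 33.5% of the 23594 genes tested, and 0 rose (also 0 at an unadjusted p below 0.05 and 0 by DESeq2), against 27.4% of all genes. Of those that fell, 28 did so by over 4-fold, compared with 25.8% of all genes tested. The median log2 fold change was -2.69 for these genes and -0.12 for all genes tested. In 37 of the 41 the knockdown values were both under the WT pair, against 43.7% of all genes, and in 0 both lay above, against 39% of all genes. The 41 genes took 1.05% and 1.36% of the WT counts and 0.174% and 0.228% of the knockdown counts. Scaling moved the median of all genes to 0.31 with library totals only and to -0.65 on synaptonemal complex and cohesin genes, where 4251 genes were higher and 9133 lower in place of 6467 and 7902. The median of the 41 genes was then -2.24 and -3.17.

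**Figure D1:**
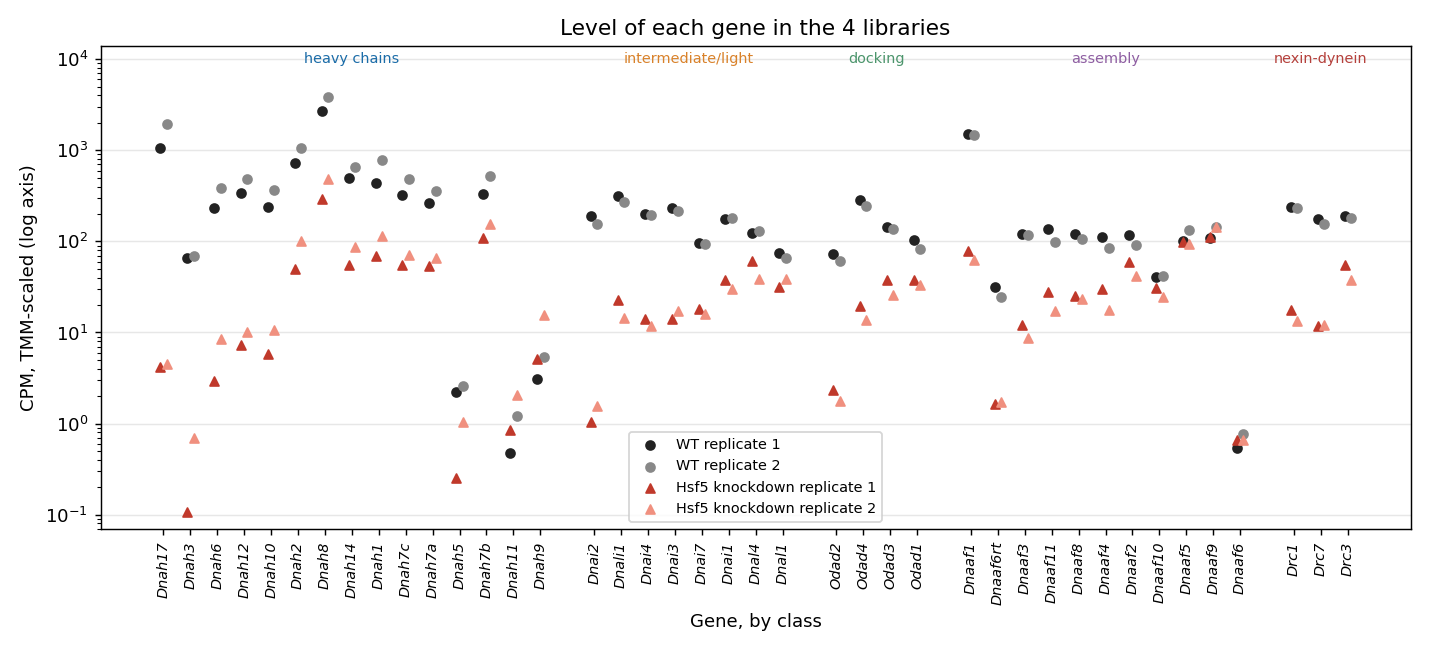
Level of each of the 41 genes in the 4 libraries, in TMM-scaled CPM on a log axis, with WT replicates as circles, Hsf5 knockdown replicates as triangles, and genes grouped by class and ordered by fold change. In 37 genes both triangles lie below both circles; Dnah9, Dnah11, Dnaaf9 and Dnaaf6 are the exceptions.

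The promoter windows of these genes were searched for short motifs of factors known in the ciliary and meiotic programmes. RefSeq (GRCm38.p6, while the counts are on mm39) gave windows for 26 of the 41 genes by symbol or synonym, from 250 bases before to 50 after the annotated start, which need not be the start used in spermatocytes. The core of the RFX site, GTTGCC, was found in 9 of 26 windows (34.6%), all motifs being searched on both strands, against 12.5% of all 32851 windows of 300 bases. The core of the MYB site, CNGTTG, was in 17 of 26 (65.4%), against 35% of all windows. In 5 windows a match of the one overlapped a match of the other. The 3 Dnah7 windows, which come from similar copies, each held both cores, so the windows counted are not all independent. The heat shock element GAANNTTC was in 5 (19.2%, against 7.86%), 3 of them Dnah7 copies, and TTCNNGAA in 0 of 26, against 8.52% of all windows. Of the 22 windows of genes that fell 8 held the RFX core and 16 the MYB core, and of the 4 others 1 and 1. A match is a run of letters and not a shown binding site.

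The windows shown run 5′ to 3′ on the strand of the gene, for Dnah10, Dnai2 and Drc1, which hold both cores, for Dnah8, which holds the MYB core alone, and for Dnah17, which fell most and holds neither. Capitals mark each RFX core or MYB core on either strand. By RefSeq on GRCm38.p6 they lie at chr5:124724835-124725134 on the plus strand (Dnah10), chr11:114727169-114727468 on the plus strand (Dnai2), chr5:30281143-30281442 on the plus strand (Drc1), chr17:30626686-30626985 on the plus strand (Dnah8) and chr11:118129170-118129469 on the minus strand (Dnah17).
Dnah10: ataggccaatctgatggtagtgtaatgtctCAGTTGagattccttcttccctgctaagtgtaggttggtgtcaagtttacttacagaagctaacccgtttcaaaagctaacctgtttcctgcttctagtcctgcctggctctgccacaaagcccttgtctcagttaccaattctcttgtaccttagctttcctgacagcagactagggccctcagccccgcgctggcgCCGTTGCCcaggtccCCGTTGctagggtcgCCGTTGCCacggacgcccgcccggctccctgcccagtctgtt
Dnai2: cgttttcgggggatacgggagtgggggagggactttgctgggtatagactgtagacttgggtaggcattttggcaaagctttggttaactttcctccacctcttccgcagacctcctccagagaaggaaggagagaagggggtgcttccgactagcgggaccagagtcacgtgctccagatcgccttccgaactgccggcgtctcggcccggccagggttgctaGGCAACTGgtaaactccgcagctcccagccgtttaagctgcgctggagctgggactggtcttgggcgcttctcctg
Drc1: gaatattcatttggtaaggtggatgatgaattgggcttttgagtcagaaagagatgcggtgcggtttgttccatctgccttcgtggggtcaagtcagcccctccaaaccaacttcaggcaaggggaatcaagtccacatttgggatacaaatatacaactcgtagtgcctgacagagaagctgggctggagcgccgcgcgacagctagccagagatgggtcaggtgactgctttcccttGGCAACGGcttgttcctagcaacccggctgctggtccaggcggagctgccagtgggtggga
Dnah8: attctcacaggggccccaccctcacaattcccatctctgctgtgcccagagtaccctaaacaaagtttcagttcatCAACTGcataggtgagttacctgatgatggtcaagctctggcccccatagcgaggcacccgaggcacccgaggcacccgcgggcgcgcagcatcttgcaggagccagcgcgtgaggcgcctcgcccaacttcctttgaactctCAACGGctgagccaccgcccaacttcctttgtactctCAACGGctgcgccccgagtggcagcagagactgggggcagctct
Dnah17: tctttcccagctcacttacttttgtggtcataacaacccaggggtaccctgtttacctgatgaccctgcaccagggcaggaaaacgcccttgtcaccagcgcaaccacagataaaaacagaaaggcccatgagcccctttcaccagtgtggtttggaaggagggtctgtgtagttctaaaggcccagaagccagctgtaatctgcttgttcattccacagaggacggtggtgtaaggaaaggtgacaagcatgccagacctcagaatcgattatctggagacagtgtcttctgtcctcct
The Dnah10 window held 2 RFX cores and 4 MYB cores and its gene had a log2 fold change of -5.19, while the Dnah17 window held 0 of either and its gene had one of -8.43. The relation of such matches to the fold changes was not tested.

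The heavy chains held the deepest fall and also the 3 lowest WT levels per kilobase of transcript. Of 15 heavy chains 12 fell, against 33.5% of all tested genes, and 11 of them by over 4-fold, against 25.8%. Dnah5, Dnah9 and Dnah11 did not pass. The median log2 fold change was -3.01. Outer arms carry a beta-type and a gamma-type chain, which sperm and airway cilia take from different genes: Dnah17 and Dnah8 are the sperm forms, and Dnah9, Dnah11 and Dnah5 the forms known from airway cilia.

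Dnah17, the beta-type chain of sperm outer arms, had 1061 and 1927 CPM in WT but 4.15 and 4.53 CPM in the knockdown. Its log2 fold change was -8.43 (SE 0.51; edgeR, adjusted p = 6.15e-06). Dnah8, the gamma-type chain of the same arm, was the most counted heavy chain in all 4 libraries, with 2724 and 3874 CPM in WT and 289 and 486 CPM in the knockdown. It fell by 3.09 (SE 0.43) on the log2 scale (edgeR, adjusted p = 0.000348). The WT and knockdown values of both genes were far apart, but the partners fell unequally. Per kilobase, the ratio of Dnah17 to Dnah8 was 0.434 and 0.554 in WT and 0.016 and 0.0104 in the knockdown libraries. Dnah8 made up 37.6% and 35.3% of the heavy chain counts in WT and 41.0% and 42.8% in the knockdown, whereas Dnah17 went from 14.7% and 17.6% to 0.588% and 0.399%.

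The airway forms had low levels. Dnah5 had 74 and 75 counts in WT and 12 and 43 in the knockdown (log2 fold change -1.90, SE 0.77; edgeR, adjusted p = 0.0563). Its knockdown values were both lower, and it passed as lower without knockdown replicate 2 (-3.23, adjusted p = 0.0115) and without WT replicate 1 (-2.03, adjusted p = 0.0384). The threshold was missed with WT replicate 2 left out (-1.75, adjusted p = 0.0925) and with knockdown replicate 1 left out (-1.13, adjusted p = 0.225). It also passed without the filter on low counts, with DESeq2, with scaling on synaptonemal complex and cohesin genes, and with the replicate number as a block (-2.16, adjusted p = 0.0164). Dnah11 had 16 and 35 counts in WT and 40 and 85 in the knockdown, and the groups overlapped in CPM (log2 fold change 0.78, SE 0.76; edgeR, adjusted p = 0.399). Without knockdown replicate 2 its log2 fold change was -0.0018.

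Dnah9 had the highest fold change of the 41 genes, with 3.07 and 5.31 CPM in WT and 5.16 and 15.4 CPM in the knockdown (log2 fold change 1.29, SE 0.60; edgeR, adjusted p = 0.0898). The lower knockdown value lay within the WT range, and the higher one came from knockdown replicate 2. The gene passed as higher with library totals only (1.76, adjusted p = 0.0397), without the filter on low counts (1.32, adjusted p = 0.0314), with the replicate number as a block (1.15, adjusted p = 0.0236), without WT replicate 2 (1.76, adjusted p = 0.0154) and with knockdown replicate 1 left out (1.94, adjusted p = 0.0171). Without knockdown replicate 2 its log2 fold change was 0.30 (adjusted p = 0.727). Per kilobase, Dnah17 was 319 and 334 times Dnah9 in the WT libraries and 0.740 and 0.271 times Dnah9 in the knockdown libraries. Of the markers of multiciliated epithelium, which lines the ducts that drain the testis, Sntn and Cdhr3 had no count in any library, and Mcidas, Gmnc and Pax8 stayed at or below 0.194 CPM. Of the 14 markers 8 could be tested, of which 3 (Deup1, Foxj1 and Krt8) fell, against 33.5% of all tested genes. Of the 8, 0 rose, against 27.4% of all, and 5 did not pass. Among these 5, Ccno went from 2.92 and 3.33 CPM in WT to 4.19 and 3.97 CPM in the knockdown. Tppp3 and Epcam overlapped between the groups, with log2 fold changes of 0.57 and 0.32, and Cdc20b and Trp73 lay below WT. Summed over all 14, the level was 286 and 210 CPM in WT and 103 and 72.4 CPM in the knockdown, with Deup1, Foxj1, Epcam and Krt8 giving most of the WT sum. The part of such cells in the Dnah9 counts was not tested.

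All 10 inner arm heavy chains fell, against 33.5% of all tested genes, with a median log2 fold change of -3.28. Inner arm f, which carries the Dnah10 and Dnah2 chains as a pair, is the regulated inner arm. Dnah2 stood at 721 and 1050 CPM in WT and 49.1 and 102 CPM in the knockdown, with a log2 fold change of -3.55 (SE 0.44; edgeR, adjusted p = 0.000197). Dnah10 stood at 238 and 363 CPM in WT and 5.86 and 10.6 CPM in the knockdown, with a log2 fold change of -5.19 (SE 0.43; adjusted p = 2.37e-05). Both lay below the WT range in each knockdown library, as did 43.7% of all tested genes. Per kilobase the ratio of Dnah10 to Dnah2 was 0.322 and 0.337 in WT against 0.116 and 0.101 in the knockdown.

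The chains that form the single inner arms spread from a deep fall to a modest one. Dnah3 had 66.1 and 69.4 CPM in WT and 0.106 and 0.702 CPM, or 5 and 29 counts, in the knockdown. Its log2 fold change was -7.41 (SE 0.73; edgeR, adjusted p = 5.8e-05). That value was -9.28 with knockdown replicate 2 left out and -6.51 with knockdown replicate 1 left out. Dnah6 went from 232 and 382 CPM to 2.96 and 8.50 CPM (log2 fold change -5.75, SE 0.57; adjusted p = 5.76e-05), with -6.70 without knockdown replicate 2 and -5.11 without knockdown replicate 1. In both genes knockdown replicate 2 was the higher of its pair, as it was for Dnah2, whose value without that library was -4.17.

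Dnah12 went from 341 and 482 CPM in WT to 7.24 and 10.2 CPM in the knockdown (log2 fold change -5.56, SE 0.39; edgeR, adjusted p = 1.05e-05). Dnah1, a chain whose loss is a known cause of malformed sperm tails, went from 435 and 778 CPM to 68.7 and 116 CPM (-2.72, SE 0.41; adjusted p = 0.000547). Dnah14 lay close to it, at 493 and 663 CPM in WT and 55.5 and 87.8 CPM in the knockdown (-3.01, SE 0.37). In these 3 genes both knockdown values lay under both WT values, as in 43.7% of all tested genes.

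Dnah7a, Dnah7b and Dnah7c are similar copies, so reads may be shared among them and their separate counts are less certain. Summed, they stood at 923 and 1366 CPM in WT and 216 and 291 CPM in the knockdown. Dnah7b fell least of the called heavy chains, by 1.70 (SE 0.35) on the log2 scale, while the log2 fold change was -2.39 (SE 0.32) for Dnah7a and -2.69 (SE 0.34) for Dnah7c. Dnah7b went from 4.59% and 4.77% of the heavy chain counts in WT to 15.3% and 13.6% in the knockdown libraries. The make-up of the heavy chain pool thus differed between the groups in the same way in both libraries of each: Dnah8, Dnah1, Dnah14, the Dnah7 copies and the airway forms took larger shares in the knockdown, and Dnah17, Dnah12, Dnah10, Dnah6, Dnah3 and Dnah2 smaller ones.

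**Figure D2:**
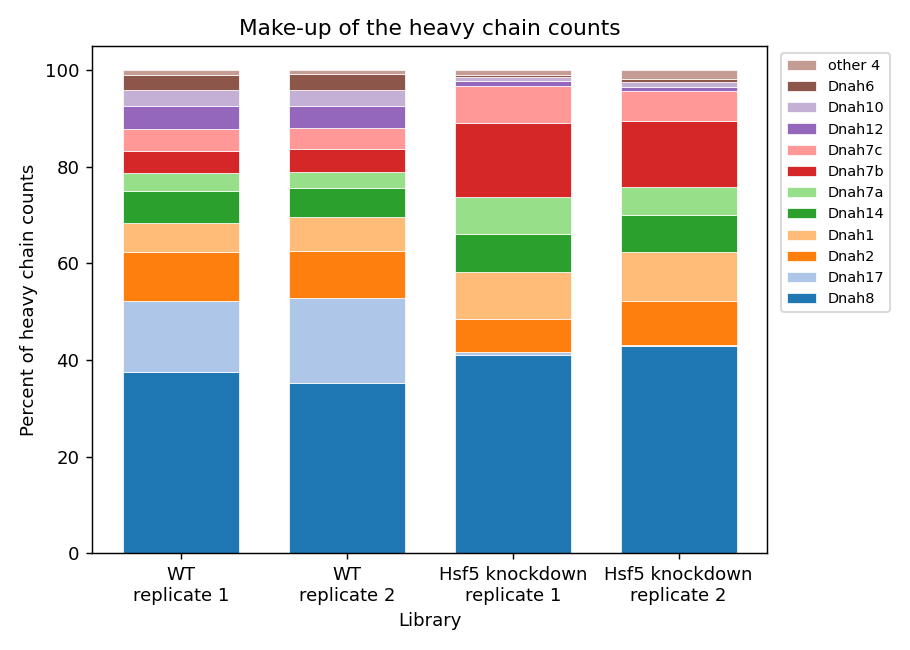
Percent of all heavy chain counts taken by each gene in each library, as stacked bars from 0 to 100, with Dnah3, Dnah5, Dnah9 and Dnah11 summed as other 4. Dnah17 takes 14.7% and 17.6% of the WT bars and 0.588% and 0.399% of the knockdown bars.

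Heavy chain transcripts are long, and long transcripts differed between replicates. All 15 heavy chains were higher in replicate 2 than in replicate 1 of WT, and all 15 in the knockdown, with median log2 ratios of 0.57 and 0.75. Of the other 26 genes 6 were higher in replicate 2 of WT and 6 in the knockdown, with medians of -0.09 and -0.32. The longest annotated transcript ran from 12.01 to 16.7 kb in the heavy chains and from 1.45 to 6.63 kb in the 24 others that had one. Over these 39 genes Pearson's r of transcript length with the replicate difference was 0.842 in WT and 0.845 in the knockdown (Spearman's rho 0.741 and 0.834), a description across genes that share the same libraries. Since the lengths of heavy chains and others do not overlap, r cannot tell a graded relation with length from a difference between these classes. Over all tested genes with transcripts above 10 kb, 386 in number, the medians were 0.47 and 0.73. Between the groups, r of length with the log2 fold change was -0.109 (rho -0.066) over the 39 genes. Over all tested genes with a length, the difference between the groups did move with length: the median log2 fold change was -0.60 up to 2 kb (40.2% lower, 20.4% higher), 0.29 from 2 to 4 kb, 0.41 from 4 to 6 kb, 0.51 from 6 to 10 kb and 0.46 above 10 kb (25.4% lower, 37.8% higher). The median of the 15 heavy chains was -3.01. The part of transcript length in the values of the 41 genes was not tested.

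**Figure D3:**
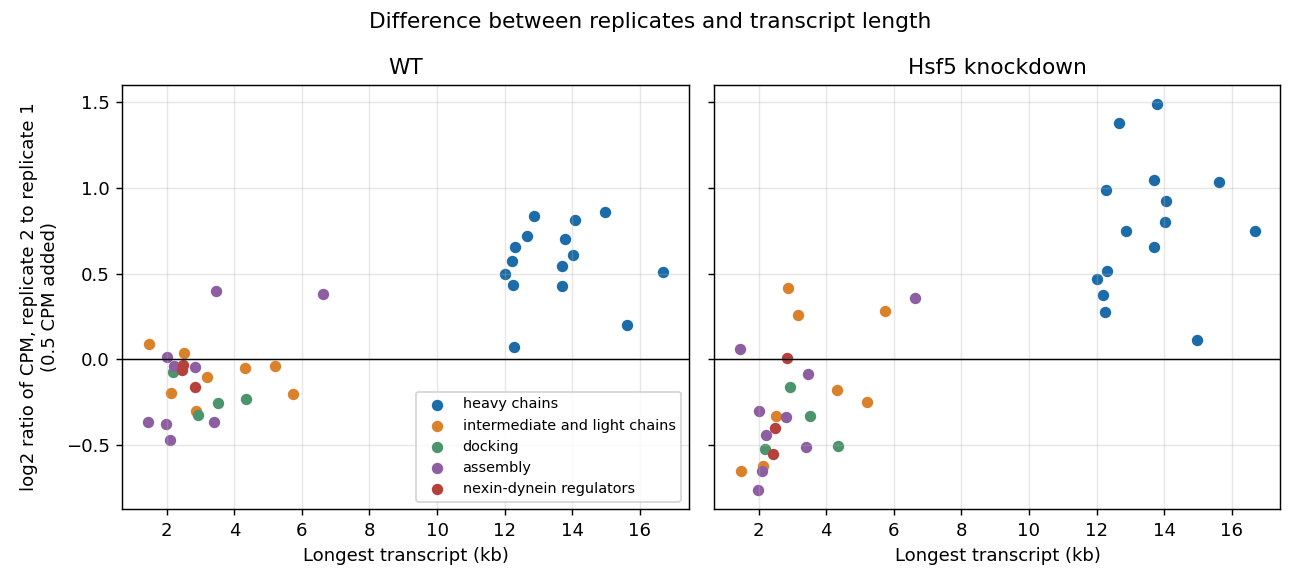
Log2 ratio of CPM in replicate 2 to replicate 1, with 0.5 CPM added, against the longest transcript in kb, for 39 genes in WT and in the Hsf5 knockdown. The 15 heavy chains, to the right, lie above 0 in both panels, and most of the shorter genes lie below 0.

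Intermediate and light chains all fell, 8 of 8, against 33.5% of all tested genes, with a median log2 fold change of -3.18. Dnai1 and Dnai2 are the paired intermediate chains of the outer arm. Dnai2 had 192 and 156 CPM in WT and 1.04 and 1.55 CPM in the knockdown (log2 fold change -7.07, SE 0.41; edgeR, adjusted p = 5.25e-06). Dnai1 had 176 and 180 CPM in WT and 37.4 and 29.7 CPM in the knockdown (-2.41, SE 0.30; adjusted p = 0.000193). The pair was close in WT and not in the knockdown: per kilobase, the ratio of Dnai2 to Dnai1 was 0.952 and 0.753 in WT and 0.0242 and 0.0456 in the knockdown.

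Intermediate chains of inner arm f are encoded by Dnai3 and Dnai4. Dnai3 went from 235 and 218 CPM to 14.2 and 17.0 CPM (log2 fold change -3.86, SE 0.32; edgeR, adjusted p = 2.08e-05), and Dnai4 from 198 and 192 CPM to 14.1 and 11.8 CPM (-3.91, SE 0.31; adjusted p = 1.96e-05). The falls of these genes were close to each other. Dnai7, linked to the inner arms as well, fell from 96.4 and 93.2 CPM to 17.9 and 15.8 CPM (-2.49, SE 0.31; adjusted p = 0.00019). Dnali1, the light intermediate chain of single inner arms, had the highest WT level per kilobase of the class, with 313 and 273 CPM in WT and 22.5 and 14.5 CPM in the knockdown (-3.99, SE 0.35; adjusted p = 3.11e-05).

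The light chains of the outer arm fell least. Dnal4 stood at 123 and 131 CPM in WT and at 60.7 and 38.5 CPM in the knockdown (log2 fold change -1.36, SE 0.32; edgeR, adjusted p = 0.00509). Dnal1, which binds the gamma-type heavy chain, stood at 75.2 and 65.5 CPM in WT and at 32.0 and 39.1 CPM in the knockdown (-0.99, SE 0.30; adjusted p = 0.0189). For each of them both knockdown values lay under both WT values, as in 43.7% of all tested genes. The call of Dnal1 was lost without WT replicate 1 (-0.90, adjusted p = 0.124), without WT replicate 2 (-1.06, adjusted p = 0.0573), without knockdown replicate 1 (-0.77, adjusted p = 0.105), with library totals only (-0.54, adjusted p = 0.147) and against a 1.5-fold minimum (adjusted p = 0.0708), and it missed a log2 fold change of 1.

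**Figure D4:**
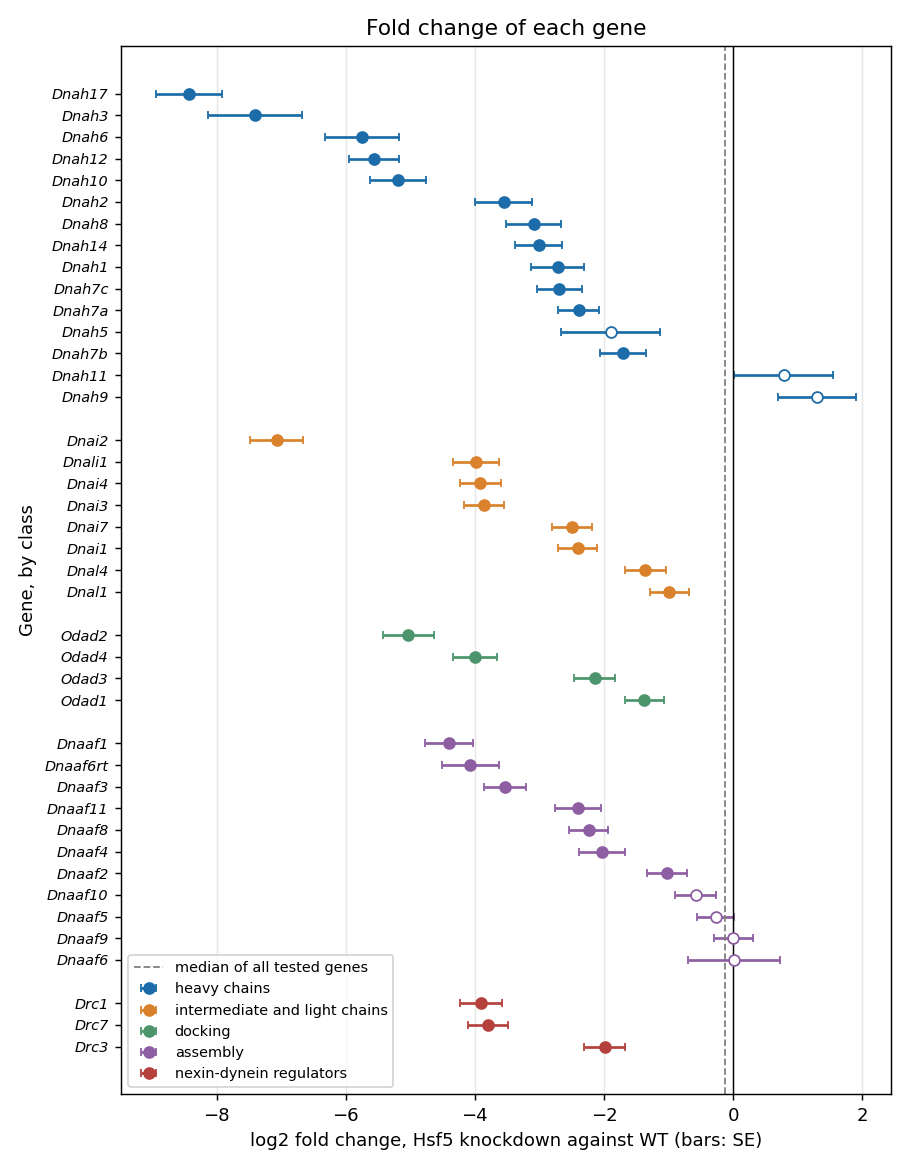
Log2 fold change of each gene, Hsf5 knockdown against WT, with its SE as a bar, by class. Filled points passed the edgeR test, open points did not, and the dashed line is the median of all tested genes at -0.12.

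All 4 docking genes fell, against 33.5% of all tested genes, with a median log2 fold change of -3.07. Odad2, an armadillo repeat protein of the docking complex, went from 73.6 and 61.7 CPM to 2.35 and 1.77 CPM (log2 fold change -5.04, SE 0.40; edgeR, adjusted p = 1.74e-05). Odad4 went from 287 and 244 CPM to 19.7 and 13.7 CPM (-3.99, SE 0.34; adjusted p = 2.61e-05). Odad3 and Odad1, the coiled-coil members, fell less. Odad3 had 143 and 136 CPM in WT and 37.3 and 25.8 CPM in the knockdown (-2.15, SE 0.31), and Odad1 had 103 and 82.0 CPM in WT and 37.6 and 33.6 CPM in the knockdown (-1.38, SE 0.30; adjusted p = 0.00338). Another 5 genes are tied to docking and to the ruler that sets the spacing of the arms: Ccdc39, Ccdc40, Ccdc63, Clxn and Ccdc103. All 5 fell, against 33.5% of all tested genes, with Ccdc40 going from 274 and 291 CPM to 10.5 and 11.99 CPM.

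The assembly factors were the most divided class. Of 11, 7 fell, against 33.5% of all tested genes, 6 of them by over 4-fold, against 25.8%. The other 4 did not pass, and the median log2 fold change was -2.03. Dnaaf1, a leucine-rich repeat protein needed for preassembly of the arms, stood at 1518 and 1470 CPM in WT and 79.0 and 62.6 CPM in the knockdown (log2 fold change -4.40, SE 0.37; edgeR, adjusted p = 2.28e-05). Dnaaf3 went from 121 and 118 CPM to 11.95 and 8.67 CPM (-3.53, SE 0.33; adjusted p = 4.33e-05). Both were well below the WT range, and in WT Dnaaf1 had the highest level per kilobase of the 39 genes with a length, 538 and 521 CPM per kb, against 163 and 232 CPM per kb for Dnah8, the next.

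Dnaaf11, another leucine-rich repeat factor, had 138 and 99.6 CPM in WT and 27.5 and 17.4 CPM in the knockdown (log2 fold change -2.41, SE 0.35; edgeR, adjusted p = 0.000452). Dnaaf8 went from 122 and 105 CPM to 25.1 and 23.1 CPM (-2.24, SE 0.30; adjusted p = 0.000269), and Dnaaf4 from 111 and 85.5 CPM to 30.3 and 17.7 CPM (-2.03, SE 0.36; adjusted p = 0.0012). The log2 fold changes of these 3 genes lay in a narrow band. Their knockdown values were under both WT values, as in 43.7% of all tested genes. Dnaaf2, the kintoun protein that works with heat shock chaperones, had 117 and 90.5 CPM in WT and 60.1 and 42.1 CPM in the knockdown (-1.02, SE 0.31; adjusted p = 0.0186). Its call was lost without WT replicate 1 (-0.84, adjusted p = 0.153), without knockdown replicate 2 (-0.78, adjusted p = 0.0701), with library totals only (-0.59, adjusted p = 0.106) and against a 1.5-fold minimum (adjusted p = 0.0652).

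The PIH-domain factor Dnaaf6 and its retrocopy Dnaaf6rt behaved differently. Dnaaf6 stands among X-linked genes in the order of the table, and Dnaaf6rt among those of chromosome 1. Dnaaf6rt had 31.8 and 24.5 CPM in WT and 1.63 and 1.72 CPM in the knockdown (log2 fold change -4.07, SE 0.44; edgeR, adjusted p = 8.96e-05). Dnaaf6 had 18 and 22 counts in WT and 31 and 27 in the knockdown, and its groups overlapped in CPM (0.014, SE 0.71; adjusted p = 0.988; its sign turned with DESeq2 size factors, with the DESeq2 test and with scaling on synaptonemal complex and cohesin genes). As copies of each other they may share reads, so their separate counts are less certain.

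The other 3 assembly factors that did not pass had, with Dnaaf6, the log2 fold changes nearest to 0 of the 41 genes. Dnaaf10, a WD40 partner of the chaperone complex, had 41.1 and 41.4 CPM in WT and 30.5 and 24.7 CPM in the knockdown (log2 fold change -0.58, SE 0.32; edgeR, adjusted p = 0.146). With scaling on synaptonemal complex and cohesin genes it passed as lower (-1.14, adjusted p = 0.0291). Dnaaf5, a HEAT-repeat factor, had 101 and 133 CPM in WT and 99.7 and 93.8 CPM in the knockdown (-0.27, SE 0.29; adjusted p = 0.44; 0.16 with library totals only). Dnaaf9 had 110 and 143 CPM in WT and 111 and 143 CPM in the knockdown (0.0062, SE 0.30; adjusted p = 0.988; -0.48 with scaling on synaptonemal complex and cohesin genes). Dnaaf5 and Dnaaf9 stood in the knockdown at places 2 and 5 of the 39 genes by CPM per kb, up from 23 and 34 in WT, while Dnaaf1 went from place 1 to 3 and Dnah17 went from place 4 to 36.

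All 3 nexin-dynein regulators fell, against 33.5% of all tested genes, with a median log2 fold change of -3.80. Drc1, a scaffold of the complex, went from 237 and 232 CPM to 17.9 and 13.4 CPM (log2 fold change -3.91, SE 0.33; edgeR, adjusted p = 2.28e-05). Drc7 went from 174 and 156 CPM to 11.8 and 11.9 CPM (-3.80, SE 0.31; adjusted p = 2.08e-05). Drc3 had 189 and 181 CPM in WT and 55.6 and 37.7 CPM in the knockdown (-1.99, SE 0.31; adjusted p = 0.000667). Drc3 had the highest level per kilobase of the 3 in both knockdown libraries, and Drc1 in both WT libraries. Other subunits of the complex go by other symbols: of 9 such genes 8 fell, against 33.5% of all tested genes. Ccdc153 did not pass, and log2 fold changes ran from -6.29 for Tcte1 to -0.25 for Ccdc153.

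Together with these, 34 further genes listed as dynein-linked under other symbols were tested, with a median log2 fold change of -2.38. Of the 34, 28 fell, against 33.5% of all tested genes, 1 rose, against 27.4%, and 5 did not pass. Among these 5, Tbc1d31 lay above WT in both knockdown libraries, as did 39% of all tested genes (0.41, SE 0.28). Counts were low for Ccdc153 (20 to 26) and Nme9 (18 to 46), which did not pass. They were also low for Clxn, which fell, with 114 and 49 in WT and 16 and 2 in the knockdown. Nme8, a thioredoxin-domain protein of outer arms, went from 191 and 96.6 CPM to 0.296 and 0.508 CPM (-8.48, SE 0.55), and Tcte1 of the nexin-dynein complex from 229 and 273 CPM to 2.24 and 4.17 CPM (-6.29, SE 0.43). The roadblock light chain genes parted: Dynlrb2 fell from 96.0 and 61.2 CPM to 12.4 and 6.71 CPM, whereas Dynlrb1, the widely expressed form that also serves cytoplasmic dynein, rose from 5.42 and 6.49 CPM to 48.6 and 33.9 CPM (2.79, SE 0.39; edgeR, adjusted p = 0.000359). Among 11 further assembly genes 9 fell, against 33.5% of all tested genes. The 2 that did not pass were Cfap300 (-0.68, SE 0.35) and Ruvbl1 (0.31, SE 0.32). Ruvbl1 is an AAA ATPase of the chaperone complex that is used well beyond cilia.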

How the data were processed

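Poly(A) RNA of cells labelled pachytene spermatocytes was sequenced in 4 libraries. The authors deposited raw counts per gene in 1 table with 1 column per library, matched to the labels by name. The submitters' processing notes name build mm39 and list the tools HISAT2 2.2.1, Trim Galore 0.6.10, DESeq2 1.46.0 and featureCounts 1.5.3. Not given in the sources used here were the annotation, whether counting used strand, and how reads with several matches were handled. Similar copies, overlapping genes and antisense partners are therefore less certain.

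The counts of all genes were tested with edgeR 4.0.16 under R 4.3.3 (filterByExpr on the groups, TMM factors 0.854 and 0.865 in WT, 1.11 and 1.22 in the knockdown, quasi-likelihood F test, Benjamini-Hochberg over 23594 genes, threshold 0.05). SE is the absolute log2 fold change over the root of F. Both replicate pairs differed beyond sampling noise (chi-square over its degrees of freedom 44.1 for WT and 93.8 for the knockdown). CPM per kb uses the longest GENCODE M21 transcript, by symbol or older symbol, for 39 of the 41 genes. The test was checked on simulated counts. Alternatives were DESeq2 1.42.0, other scalings and filters, a fold minimum, a replicate block and leaving out each library. The genes, lists and alternatives were chosen with earlier results of these data known, and groups within the further dynein-linked genes after seeing values. Per class, values are given for the 4 highest WT levels, up to 3 further genes by p and all that did not pass; the rest were added. The 41 further symbols matched 35 table genes, and 34 were tested; 3 of the unmatched are older names of assembly factors described above and 1 is an older name of Clxn.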

Additional observations from a re-analysis of the deposited data

How the results depend on the processing

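Of the 41 genes 32 to 36 were called lower under every alternative (35 with DESeq2, 32 with library totals only and with glmTreat against 1.5-fold, 36 with scaling on synaptonemal complex and cohesin genes, 33 or 34 when a library was left out), and Dnal1 and Dnaaf2 were the genes of the 34 that lost their call under any of them. The count of genes called higher went from 0 to 1, in each case Dnah9, with library totals only, without the filter on low counts and with the replicate number as a block, and ranged from 0 to 1 when a library was left out. Over all genes, scaling on synaptonemal complex and cohesin genes gave 4251 higher genes in place of 6467. Signs turned for genes near 0: Dnaaf5 was 0.16 with library totals only; Dnaaf9 was -0.048 with DESeq2 size factors, -0.48 with scaling on synaptonemal complex and cohesin genes, -0.049 with a mean of at least 1 CPM and -0.015 with the DESeq2 test, and Dnaaf6 was -0.045, -0.51 and -0.012 under the same settings without the third. With a library left out Dnaaf9 ranged from -0.19 to 0.24, Dnaaf6 from -0.24 to 0.31 and Dnah11 from -0.0018 to 1.62. The cause was not tested. The replicate numbers share only a number in the labels (correlation of the replicate differences of WT and knockdown over genes 0.321), and with them as a block 35 genes were lower; Dnah5 and Dnah9 were the calls it added and 0 were lost. With 2 libraries per group, and 12 to 85 counts per library for Dnah5, Dnah11 and Dnaaf6, changes in those 3 genes may be missed at this depth.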

Other observations

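Cytoplasmic dynein and its activator dynactin, which carry cargo along microtubules and share light chains with the axonemal arms, were counted in the same way. Of 25 genes 11 fell, against 33.5% of all tested genes, 4 rose, against 27.4%, and 10 did not pass. By over 4-fold 1 fell, against 25.8%. The median was -0.68 on the log2 scale, with -0.12 for all tested genes and -2.69 for the axonemal group. The motor chain gene Dync1h1 stood at 1011 and 1575 CPM in WT and 601 and 1013 CPM in the knockdown, and the groups overlapped (-0.68, SE 0.39; edgeR, adjusted p = 0.16). Dync2h1, the motor of transport back from the ciliary tip, fell from 329 and 501 CPM to 162 and 249 CPM (-1.02, SE 0.35; adjusted p = 0.0306). Dynll2, a light chain used by both kinds of dynein, rose from 89.4 and 74.7 CPM to 290 and 271 CPM (1.77, SE 0.29; adjusted p = 0.000829), and Dynlt3, Dync1i1 and Dync1li1 also rose. Dctn2, of dynactin, fell from 549 and 541 CPM to 175 and 134 CPM (-1.82, SE 0.31; adjusted p = 0.001). The Dynlt1 genes are similar copies with less certain counts.

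The list of transcription factors of the ciliary and meiotic programmes also held Ccno, a cyclin gene. Of its 13 tested genes 8 fell, against 33.5% of all tested genes, 2 rose, against 27.4%, and 3 did not pass, Ccno among them. Rfx2, a known activator of flagellar genes in spermatogenesis, went from 522 and 691 CPM to 176 and 154 CPM (-1.88, SE 0.32; edgeR, adjusted p = 0.000963), Rfx4 from 146 and 131 CPM to 30.7 and 30.1 CPM (-2.19, SE 0.29; adjusted p = 0.00026), and Mybl1, the A-MYB factor of pachytene, from 153 and 177 CPM to 84.9 and 82.8 CPM (-0.97, SE 0.28; adjusted p = 0.0136). Foxj1, the master gene of motile cilia, went from 42.4 and 37.9 CPM to 8.76 and 6.90 CPM (-2.36, SE 0.37; adjusted p = 0.000626). Sox5 fell from 56.7 and 41.98 CPM to 4.61 and 7.29 CPM. The X-linked Taf7l rose from 14.0 and 9.34 CPM to 119 and 77.6 CPM, and Myb rose from near background, 0 and 0.0347 CPM, to 0.465 and 0.581 CPM. Rfx3 did not pass (-0.37, SE 0.39). Rfx2, Foxj1, Mybl1, Rfx3, Dync1h1 and Dync2h1 were named after their values were seen. Whether these changes bear on the dynein genes was not tested.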
